A study of Homo sapiens with 12 samples.

Results

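Type I interferon response genes are genes whose transcription rises when a cell senses interferon alpha or beta. A written list of 54 such genes was followed across the 4 groups of an RNA-seq experiment on leukaemia cells. Membership rested on the gene symbols in that list, which was chosen with earlier results of these data known. All 54 were found among the 78930 genes of the deposited count table, and 50 of them, against 24064 of all genes, passed a filter on low counts that required enough counts in about as many libraries as 1 group holds. The other 4 members, IFI44, IFI44L, GBP1 and EPSTI1, had between 0 and 12 counts per library and were not tested.

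OCI-AML3 is an established line from acute myeloid leukaemia with a mutated NPM1 gene. Its product NPM1c, the mutant nucleophosmin, gains a nuclear export signal and lies largely in the cytoplasm. The cells of all 4 groups were NPM1WT/Degron (genotype tag NPM1c-degron). A degron is a fused tag through which a small molecule, here dTAG-13, marks a protein for degradation. Besides that allele, the dTAG mCherry group carried mCherry alone, the dTAG FL-NPM1c group full-length NPM1c with mCherry and the dTAG C-body null group the "C-body null" construct with mCherry, all brought in by lentivirus. What "C-body null" removes from the protein is not stated. Treatment with 500 nM dTAG-13, or with DMSO, began 48 hours after transduction, and mCherry-positive cells were collected by flow cytometry 24 hours after that. The remaining group is titled NTC DMSO, DMSO being the solvent, yet its treatment tag reads dTAG like that of the others. No construct is listed for it, NTC is not spelled out, and whether these cells were transduced and sorted is not said. In comparisons with NTC DMSO, loss of NPM1c, exposure to dTAG-13 itself, virus and sort cannot be told apart. The cell line tags count upward from sample to sample while the protocol names OCI-AML3 throughout. Neither the promoter of the constructs nor the clonality of the degron line is given. Each group had 3 libraries with no stated origin in separate cultures, so the p-values below reflect spread among libraries that may be technical repeats.

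Type I interferons bind a receptor made of IFNAR1 and IFNAR2, whose kinases JAK1 and TYK2 phosphorylate transcription factors, STAT2 among them. STAT2 acts with IRF9 on a promoter element, the interferon-stimulated response element (ISRE), in many of the genes listed here. Their products sense viral RNA, block translation, destroy nucleic acids, tag proteins with the ubiquitin-like ISG15 or feed back on the receptor. A second element, the gamma-activated site (GAS), is the main route by which interferon gamma induces IRF1. Myeloid cells hold many of these genes at a steady level without added interferon.

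The libraries held between 30519165 and 59925564 gene counts. Levels are given as CPM, in the order of replicates 1, 2 and 3. CPM is a gene's counts per 1e6 counts of the library, with the library total scaled by edgeR's TMM factor. Errors of levels are SDs over 3 libraries, and errors of log2 fold changes are standard errors of the fit. NPM1 itself, whose reads can come from the normal gene, the degron allele and a construct alike, lay between 1059 and 1387 CPM in dTAG mCherry, 1296 and 1515 CPM in NTC DMSO, 1608 and 1684 CPM in dTAG FL-NPM1c and 1897 and 1937 CPM in dTAG C-body null. Of 9 myeloid leukaemia markers that check the cell label, KIT had 0 counts in all libraries, the other 8 were tested, and the list summed to 784 to 806 CPM in NTC DMSO and 905 to 1048 CPM in the dTAG groups. The 15 monocyte and macrophage markers summed to 565 to 602 CPM in NTC DMSO, 3665 to 4067 CPM in dTAG mCherry, 3243 to 3459 CPM in dTAG FL-NPM1c and 4821 to 5026 CPM in dTAG C-body null, and none of them was at 0. Lists for T and NK cells, B and plasma cells, erythroid and megakaryocytic cells and epithelial cells or fibroblasts summed to at most 4.22 CPM in any library. Of those lists, 1 gene moved with full-length NPM1c: COL1A2, a collagen gene, had 0.719, 0.425 and 0.476 CPM in NTC DMSO, 0.0276, 0.107 and 0.10 CPM in dTAG mCherry, 1.55, 1.00 and 1.54 CPM in dTAG FL-NPM1c and 0.275, 0.202 and 0.143 CPM in dTAG C-body null, and its part in the results was not tested. The 5 markers of plasmacytoid dendritic cells, the main interferon producers of blood, summed to 39.5 to 55.9 CPM. Of these markers, 2 passed the low-count filter and 3 did not, so the sum does not tell whether such cells were present. The library dTAG mCherry replicate 2 stood apart within its group, with a chi-square per degree of freedom over genes of 20.5 against replicate 1 and 37.7 against replicate 3. Member counts in the 3 comparisons with dTAG mCherry are therefore also given without it. NTC DMSO replicate 3 stood apart too, at 19.4 and 18.4 against replicates 1 and 2, which gave 4.09 against each other. Member counts in the 3 comparisons with NTC DMSO are likewise given without that library. Mitochondrial transcripts took 8.41%, 7.32% and 9.63% of the counts in dTAG mCherry and 6.83% to 7.63% elsewhere.

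The 54 genes did not move as a block. Of the 50 tested members, 34 were called in at least 1 of the 6 comparisons (edgeR's quasi-likelihood test, Benjamini-Hochberg adjusted p under 0.05 over all genes). The share of all genes called in at least 1 comparison was not counted, so 34 of 50 has no background beside it. In 5 comparisons members were called in both directions. The summed level of the 54 genes lay between 1480.4 and 1538 CPM in NTC DMSO, 1618 to 1710.1 CPM in dTAG mCherry, 1677 to 1729.8 CPM in dTAG FL-NPM1c and 1693 to 1793 CPM in dTAG C-body null. That sum weighs genes by CPM, so ADAR and SAMHD1, with the levels given below, take large parts of it. SAMHD1 and TRIM22 were called higher in each dTAG group than in NTC DMSO. A ranking by level per length is a different one. Per kilobase of exon, the mean over all libraries was highest for BST2 (122 CPM per kb), IFITM2 (63.8), ADAR (49.9), SAMHD1 (23.1), TRIM22 (14.0) and IFITM1 (13.4), and lowest for GBP1 (0.00843) and IFI44L (0.0103).

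In dTAG mCherry against NTC DMSO, 6 members were higher and 5 lower, beside 22.6% of all genes called (12.9% higher and 9.69% lower). The share of members called was thus close to that of all genes. Their median log2 fold change was -0.06, against 0.00 for all genes. Libraries did not overlap for 9 higher members (background 17.8%) and 7 lower members (background 14.3%). DESeq2 split the calls 6 higher and 8 lower beside 23.9% of all genes, adding EIF2AK2, IFITM2 and PARP14. Without dTAG mCherry replicate 2 the calls were 9 higher and 7 lower beside 24% of all genes, adding IFIT2, OASL and HERC6 higher and IFITM1 and IFITM2 lower.

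With full-length NPM1c against mCherry, both after dTAG-13, 8 members were higher and 5 lower, beside a background of 15.5% (7.58% higher and 7.95% lower), and the median was 0.01 against 0.00. The 3 full-length NPM1c libraries lay entirely above those of mCherry for 18 members (background 16.4%) and entirely below for 15 (background 16%). The 13 calls fell to 5 without dTAG FL-NPM1c replicate 2 (6.61% of all genes called), to 7 without dTAG mCherry replicate 3 (7.63%) and to 8 without dTAG FL-NPM1c replicate 1 (7.46%). Without dTAG mCherry replicate 2 there were 9 higher and 8 lower members beside 27.8% of all genes, adding IFITM3 higher and PLSCR1, IFI44 and GBP2 lower, IFI44 having passed the low-count filter of that fit. In the fits that leave out 1 library, the sign of the median also depended on single libraries (-0.062 to 0.033).

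With the C-body null construct against mCherry, no member was called by edgeR, where 0.594% of all genes were. At an unadjusted p under 0.05, 2 members were higher and 14 lower. The median was -0.16 against -0.01 for all genes, 39 of 50 members had a negative log2 fold change, and the groups did not overlap for 1 higher and 16 lower members (background 7.36% and 7.6%). DESeq2 called SAMHD1 higher and IFIT5 and SAMD9 lower (1.48% of all genes called), and with no low-count filter edgeR called SAMD9 lower (0.766%). Without dTAG mCherry replicate 2, edgeR called 9 members, beside 5.7% of all genes in that fit, as follows. SAMHD1 was higher (0.25), and DDX60 (-0.49), IFIT2 (-0.76), IFIT3 (-0.43), IFIT5 (-0.67), OAS1 (-0.67), PARP14 (-0.36), SAMD9 (-0.59) and GBP2 (-0.62) were lower, with adjusted p between 0.025 and 0.047. The 9 were not chosen by the rule for named genes and are listed because that library decides the count.

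The direct contrast of the add-backs, full-length NPM1c against C-body null, held 12 higher and 4 lower members beside a background of 9.68% (4.82% higher and 4.86% lower). The median was 0.23 against 0.01, and 33 of 50 members had a positive log2 fold change. Libraries of the groups did not overlap for 26 higher members (background 18.1%) and 6 lower members (background 17.1%). The 16 calls fell to 10 without dTAG C-body null replicate 1 (5.61% of all genes called) and likewise to 10 without replicate 2 (5.64%).

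Against NTC DMSO, dTAG FL-NPM1c had 10 higher and 7 lower members (background 27.9%, with 14.6% higher and 13.3% lower) and a median of 0.08 against 0.02. Libraries did not overlap for 17 higher (background 23.2%) and 10 lower members (background 20.3%). The 17 calls fell to 11 when NTC DMSO replicate 1 or 2 or dTAG FL-NPM1c replicate 1 or 2 was left out. The share of all genes called fell as well, to 17%, 17.5%, 18.3% and 18.2% in that order. The dTAG C-body null group had 8 higher and 13 lower members than NTC DMSO (background 26.6%, with 14.1% higher and 12.4% lower) and a median of -0.23 against 0.00. For that pair, 10 higher (background 21.1%) and 18 lower members (background 19.3%) had no overlap. Without NTC DMSO replicate 3, 6 members were higher and 7 lower in dTAG mCherry than in NTC DMSO (21% of all genes called). The counts were 11 higher and 9 lower in dTAG FL-NPM1c (31.7%) and 7 higher and 14 lower in dTAG C-body null (28.6%). Each group serves in 3 of the 6 comparisons, so values from them are set side by side below and their overlap is not tested.

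**Figure D1:**
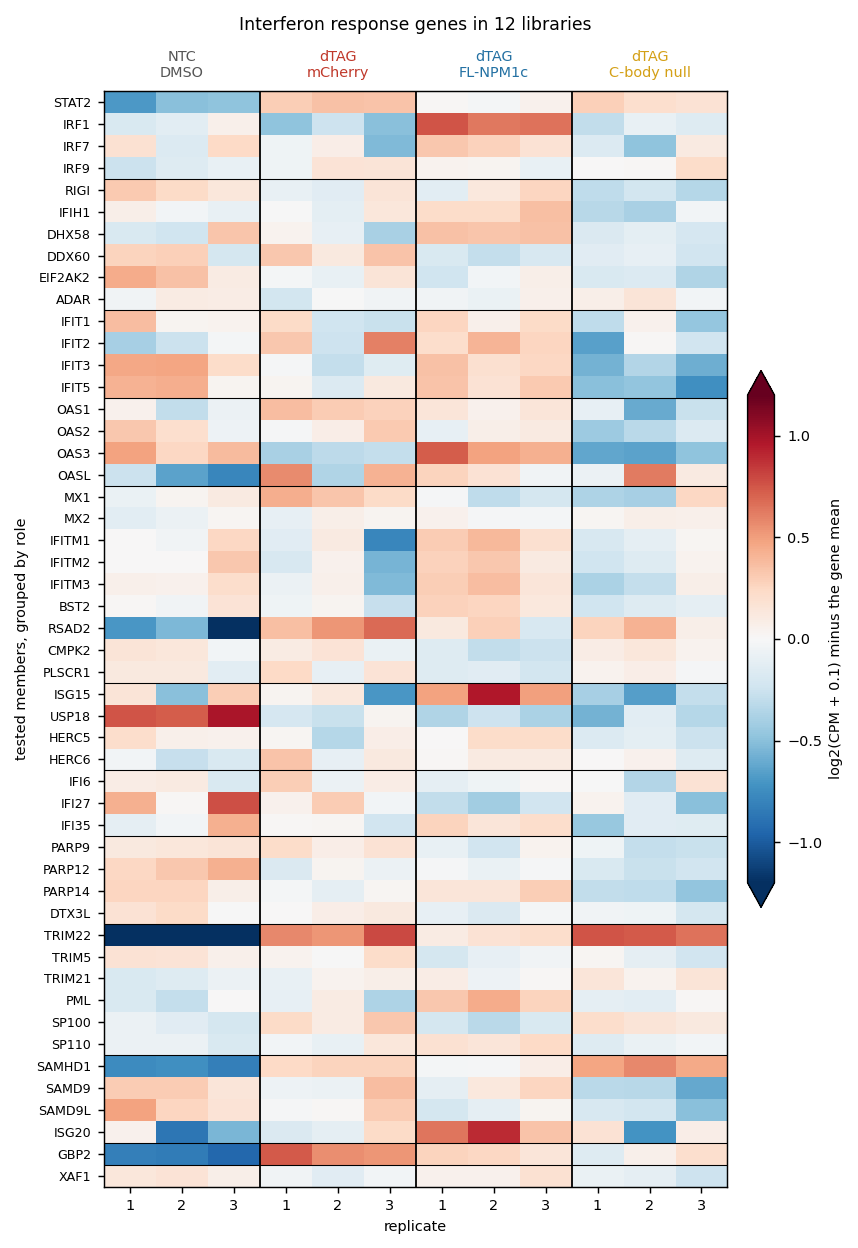
Levels of the 50 tested members in each of the 12 libraries, as the log2 of CPM plus 0.1 minus the gene's mean over all libraries (colour, limited at 1.2 in either direction), with genes ordered by role and libraries by group. TRIM22, SAMHD1, STAT2 and GBP2 are low in the 3 NTC DMSO libraries, while IRF1 is high in the 3 dTAG FL-NPM1c libraries and OAS3 in those and the NTC DMSO libraries.

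Promoters of 5 members called higher with full-length NPM1c than with C-body null are shown here, chosen after their values were seen, to place the sequence beside the values. They come from RefSeq (build GRCh38.p14), read 5′ to 3′ on the gene's strand, and hold RefSeq's 250-base upstream window as far as the first base that GENCODE places in an exon of the gene. For ISG15 the RefSeq start lies inside the longer span that GENCODE gives the gene. Capitals mark an ISRE-like motif, that is, GAAA, any 2 bases and GAAA on either strand (TTTC, any 2 bases and TTTC when it lies on the other), in OAS3, IFIT3, IFIT5 and ISG15, and a GAS-like motif, TTCNNNGAA, which reads alike on both strands, in IRF1. OAS3 holds 1 match, IFIT3 and IFIT5 hold 2 each, and those of ISG15 overlap.
OAS3, chr12:112938224-112938351, plus strand: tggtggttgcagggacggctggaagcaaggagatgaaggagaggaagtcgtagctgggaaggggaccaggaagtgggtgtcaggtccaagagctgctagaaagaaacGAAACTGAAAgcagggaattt
IFIT3, chr10:89327747-89327893, plus strand: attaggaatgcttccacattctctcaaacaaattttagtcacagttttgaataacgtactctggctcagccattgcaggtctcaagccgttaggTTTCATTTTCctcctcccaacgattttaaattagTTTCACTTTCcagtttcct
IFIT5, chr10:89414318-89414567, plus strand: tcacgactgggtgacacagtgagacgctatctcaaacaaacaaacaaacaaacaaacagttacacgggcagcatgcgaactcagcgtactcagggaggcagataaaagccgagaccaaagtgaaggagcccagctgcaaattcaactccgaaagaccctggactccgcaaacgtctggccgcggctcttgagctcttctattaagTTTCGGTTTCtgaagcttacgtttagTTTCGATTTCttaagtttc
ISG15, chr1:1013247-1013422, plus strand: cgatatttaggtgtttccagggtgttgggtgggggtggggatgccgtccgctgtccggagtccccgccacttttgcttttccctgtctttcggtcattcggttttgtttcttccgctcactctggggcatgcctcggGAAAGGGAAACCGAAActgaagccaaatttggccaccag
IRF1, chr5:132490799-132491023, minus strand: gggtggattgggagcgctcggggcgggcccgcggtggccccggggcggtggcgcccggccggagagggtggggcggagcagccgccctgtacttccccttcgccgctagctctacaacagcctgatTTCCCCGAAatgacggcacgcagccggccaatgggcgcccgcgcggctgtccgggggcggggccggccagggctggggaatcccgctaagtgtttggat

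Of the 54 members, 43 were in the promoter table, and 23 of them (53.5%) held the ISRE-like motif within 250 bases upstream, against 839 of all 27305 promoters (3.07%). The GAS-like motif was present in 10 of the 43 (23.3%) and in 1850 of all promoters (6.78%). IRF7, DHX58, IFIT2, OAS2, OASL, MX2, IFITM2, USP18, TRIM22, PML and GBP2 were the other 11 members. Among the 19 tested members with the ISRE-like motif, 8 were higher and 0 lower with full-length NPM1c than with C-body null, and their median log2 fold change was 0.44. Among the 20 tested members without it, 3 were higher and 3 lower, with a median of 0.06. In dTAG C-body null against NTC DMSO, the counts were 0 higher and 6 lower with the motif (median -0.30) and 5 higher and 5 lower without it (median -0.05). Medians with and without it were similar for dTAG C-body null against dTAG mCherry (-0.19 and -0.14, with 0 calls in either set). The same held for dTAG FL-NPM1c against NTC DMSO (0.00 and 0.03, with 2 higher and 3 lower against 5 higher and 3 lower). For dTAG mCherry against NTC DMSO they were -0.19 and 0.06, and for dTAG FL-NPM1c against dTAG mCherry 0.28 and -0.13. The difference between these sets was not tested, and a match of letters is a description of the window, not a binding site.

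**Figure D2:**
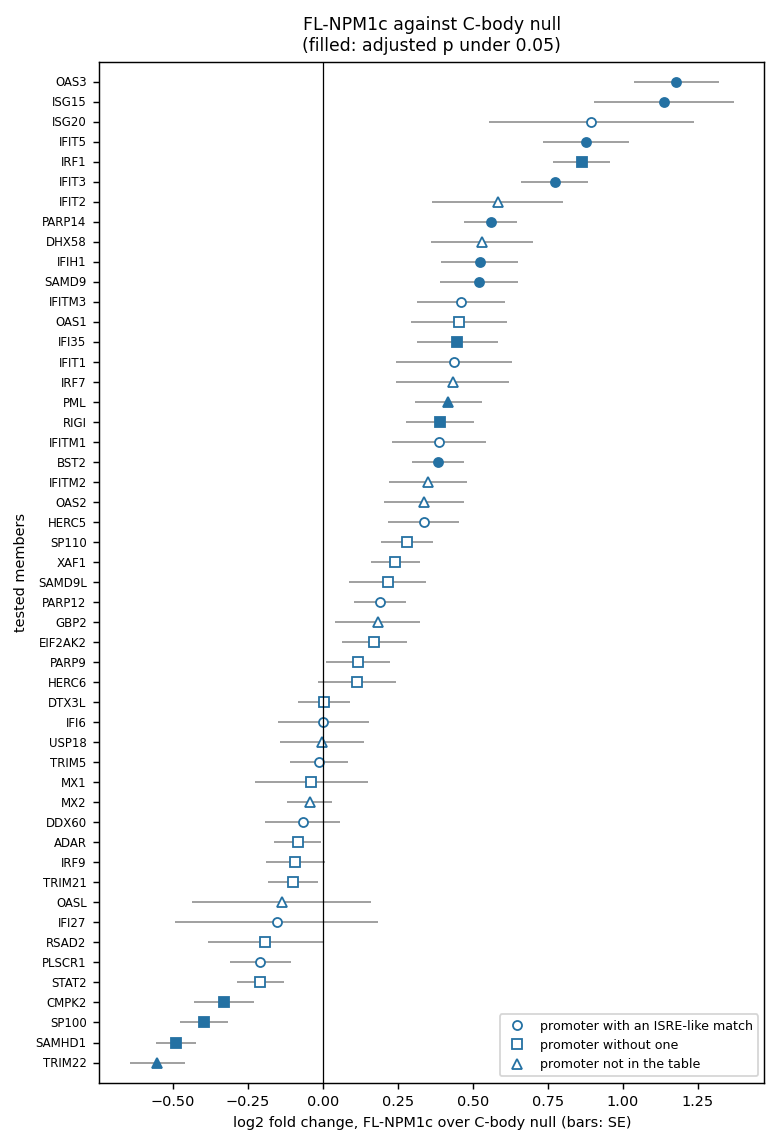
Log2 fold change of each of the 50 tested members between dTAG FL-NPM1c and dTAG C-body null (points, with bars of 1 standard error), ordered by size, with filled points for adjusted p under 0.05 and marker shapes for the promoter class. OAS3 (1.18) and ISG15 (1.14), both with the ISRE-like motif, are at one end, and TRIM22 (-0.55), SAMHD1 (-0.49) and SP100 (-0.40) at the other.

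Among the transcription factors of the list, STAT2 and IRF1 were both higher with full-length NPM1c than in NTC DMSO, and were called in opposite directions in dTAG mCherry against NTC DMSO and with full-length NPM1c against mCherry. IRF7 and IRF9 were not called. STAT2 (ENSG00000170581, chr12:56341597-56360155, minus strand), part of the complex that binds the ISRE, had 23.4, 26.6 and 27.0 CPM in NTC DMSO, 46.2, 48.3 and 47.8 CPM in dTAG mCherry, 38.0, 37.1 and 39.0 CPM in dTAG FL-NPM1c and 46.0, 43.4 and 42.5 CPM in dTAG C-body null. All dTAG libraries lay above all NTC DMSO libraries, and the dTAG FL-NPM1c libraries lay below those of the other dTAG groups. STAT2 was 1.85-fold higher in dTAG mCherry than in NTC DMSO (log2 fold change 0.89 ± 0.08, adjusted p = 4.5e-07), and was also above NTC DMSO with full-length NPM1c (0.57 ± 0.08, adjusted p = 7.8e-05) and with C-body null (0.78 ± 0.08, adjusted p = 1.5e-06). It was lower with full-length NPM1c than with mCherry (-0.32 ± 0.08, adjusted p = 0.013), a call that was lost without dTAG FL-NPM1c replicate 2 (log2 fold change -0.30, adjusted p 0.068). The difference between the add-backs was -0.21 ± 0.08, adjusted p = 0.11.

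IRF1 (ENSG00000125347, chr5:132481609-132490798, minus strand) is a transcription factor of both interferon pathways that also activates antigen presentation genes. Its levels were 30.6, 31.8 and 36.3 CPM in NTC DMSO, 24.8, 29.4 and 24.5 CPM in dTAG mCherry, 59.0, 54.1 and 54.7 CPM in dTAG FL-NPM1c and 28.3, 32.7 and 31.2 CPM in dTAG C-body null. The other 3 groups lay between 24.5 and 36.3 CPM, and every dTAG FL-NPM1c library lay above that range. IRF1 was 2.13-fold higher with full-length NPM1c than with mCherry (log2 fold change 1.09 ± 0.10, adjusted p = 2.4e-06), 1.82-fold higher than with C-body null (0.86 ± 0.10, adjusted p = 1.5e-05) and 1.70-fold higher than in NTC DMSO (0.76 ± 0.10, adjusted p = 2.6e-05). In dTAG mCherry it was below NTC DMSO (-0.32 ± 0.10, adjusted p = 0.023), and this call was lost without NTC DMSO replicate 3, or without dTAG mCherry replicates 1 or 3, or with the 2 groups fitted alone (log2 fold change -0.32 to -0.25, adjusted p 0.067 to 0.086). Exons of IRF1 share 22.0% of their bases with genes on the opposite strand, one of them C5orf56, and the strand setting of the counting is not given in the sources used here.

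IRF7, the factor that amplifies interferon alpha production, ranged from 1.34 to 2.50 CPM, and IRF9, the DNA-binding partner of STAT2, from 11.0 to 15.4 CPM. In dTAG mCherry against NTC DMSO, IRF9 differed by 0.26 ± 0.10, adjusted p = 0.069. Exons of IRF9 share 48.4% of their bases with AL136295.5 on the same strand, so its counts are uncertain.

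**Figure D3:**
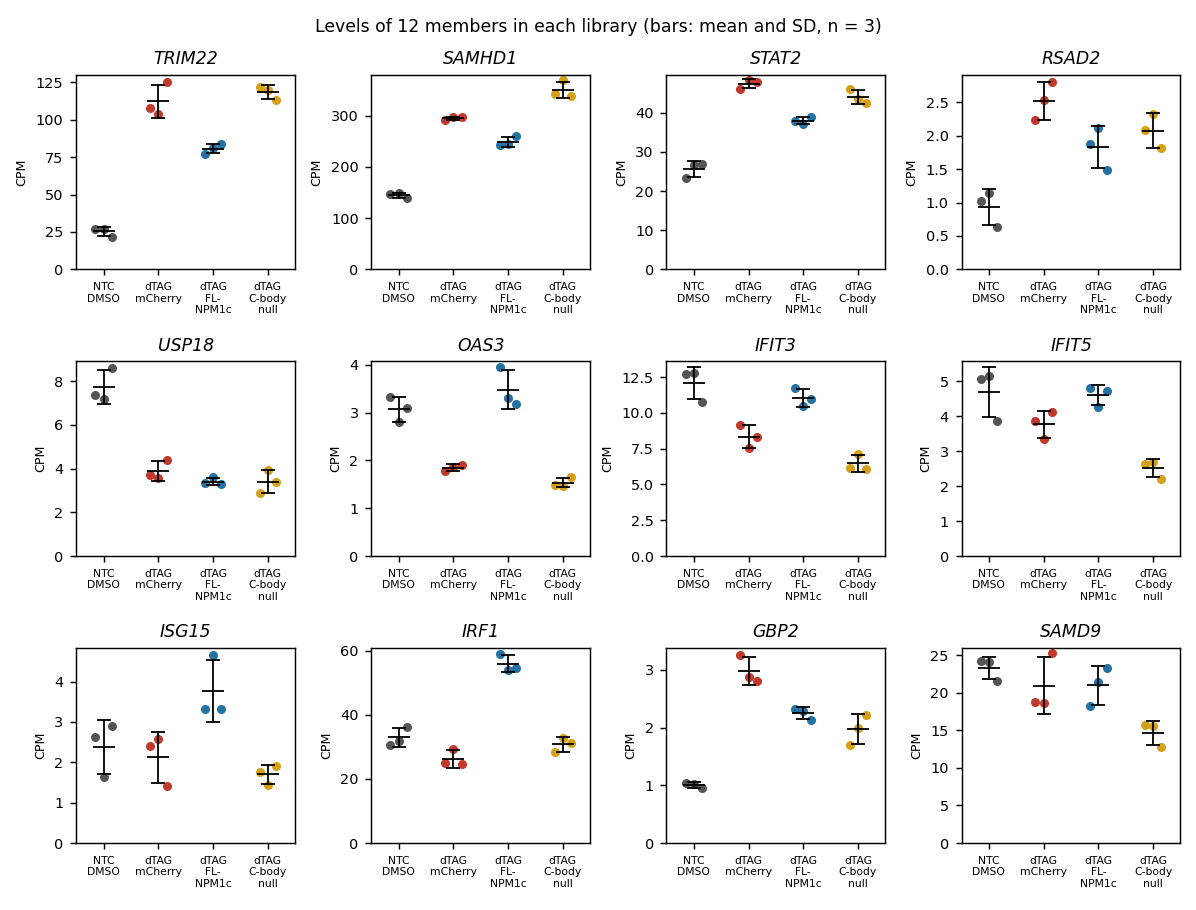
Levels of 12 members in CPM (vertical axes, each from 0) in the 12 libraries by group, with points for libraries and bars for the group mean and SD (n = 3). TRIM22, SAMHD1, STAT2, RSAD2 and GBP2 are lowest in NTC DMSO and USP18 is highest there, whereas IRF1 stands between 54.1 and 59.0 CPM in dTAG FL-NPM1c, above all other libraries.

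None of the 6 RNA sensors and RNA-acting enzymes was called higher in a dTAG group than in NTC DMSO, and RIGI, EIF2AK2 and DDX60 were lower in at least 1 of these comparisons. RIGI, the sensor of RNA with a triphosphate end, had 14.0 ± 0.876 CPM in NTC DMSO, 11.8 ± 1.33 CPM in dTAG mCherry, 12.7 ± 1.71 CPM in dTAG FL-NPM1c and 9.72 ± 0.436 CPM in dTAG C-body null. It was lower in dTAG C-body null than in NTC DMSO (log2 fold change -0.52 ± 0.11, adjusted p = 0.0025) and higher with full-length NPM1c than with C-body null (0.39 ± 0.11, adjusted p = 0.039). IFIH1 (MDA5), the sensor of long double-stranded RNA, was also higher with full-length NPM1c than with C-body null (0.52 ± 0.13, adjusted p = 0.015), at 4.60 ± 0.264 against 3.20 ± 0.452 CPM. EIF2AK2 (PKR), the kinase that halts translation on double-stranded RNA, was lower than in NTC DMSO with C-body null (-0.54 ± 0.11, adjusted p = 0.0013) and with full-length NPM1c (-0.37 ± 0.11, adjusted p = 0.018). DDX60, a helicase linked to RIG-I signalling, was lower with full-length NPM1c than with mCherry (-0.49 ± 0.12, adjusted p = 0.016) and than in NTC DMSO (-0.35 ± 0.12, adjusted p = 0.043).

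DHX58 (LGP2), a regulator of both sensors, was not called, nor was ADAR, which edits adenosine in double-stranded RNA and ranged from 414 to 537 CPM. The RIGI call between the add-backs was lost without dTAG C-body null replicates 1, 2 or 3, or without dTAG FL-NPM1c replicates 2 or 3 (log2 fold change 0.30 to 0.40, adjusted p 0.12 to 0.16). The IFIH1 call was lost without dTAG C-body null replicates 1 or 2, or without dTAG FL-NPM1c replicate 3 (log2 fold change 0.42 to 0.48, adjusted p 0.063 to 0.12). Of the calls against NTC DMSO with full-length NPM1c, EIF2AK2 was lost without NTC DMSO replicates 1 or 2, or without dTAG FL-NPM1c replicate 1 (log2 fold change -0.37 to -0.29, adjusted p 0.056 to 0.098) and DDX60 without NTC DMSO replicates 1 or 2, or without dTAG FL-NPM1c replicates 1, 2 or 3, or with library totals only (log2 fold change -0.40 to -0.28, adjusted p 0.056 to 0.17). The DDX60 call against mCherry was lost without dTAG FL-NPM1c replicate 2, or without dTAG mCherry replicate 3 (log2 fold change -0.45 to -0.44, adjusted p 0.052 to 0.073).

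The IFIT genes, whose products bind foreign RNA ends and block their translation, lie side by side on chromosome 10 and differed in which changes were called. With full-length NPM1c against C-body null the libraries did not overlap for any of the 4 and all values were positive, at log2 fold changes of 0.44 for IFIT1, 0.58 for IFIT2, 0.77 for IFIT3 and 0.88 for IFIT5, and IFIT3 and IFIT5 were called. In dTAG mCherry against NTC DMSO IFIT2 had 0.49 and the other 3 had negative values, of which that of IFIT3 was called. IFIT3 (ENSG00000119917, chr10:89327894-89340971, plus strand), which stabilises the IFIT complex, had 12.7, 12.8 and 10.8 CPM in NTC DMSO, 9.12, 7.53 and 8.32 CPM in dTAG mCherry, 11.7, 10.5 and 11.0 CPM in dTAG FL-NPM1c and 6.18, 7.16 and 6.08 CPM in dTAG C-body null. The NTC DMSO and dTAG FL-NPM1c libraries overlapped at the top, dTAG mCherry lay below both and dTAG C-body null was lowest. IFIT3 was lower in dTAG mCherry than in NTC DMSO (log2 fold change -0.54 ± 0.11, adjusted p = 0.0019) and 1.87-fold lower in dTAG C-body null (-0.90 ± 0.11, adjusted p = 1.3e-05). It was higher with full-length NPM1c than with mCherry (0.41 ± 0.11, adjusted p = 0.020) and 1.71-fold higher than with C-body null (0.77 ± 0.11, adjusted p = 2.1e-04). The call against mCherry was lost without dTAG FL-NPM1c replicate 1 (log2 fold change 0.34, adjusted p 0.13). With full-length NPM1c, IFIT3 differed from NTC DMSO by -0.13 ± 0.11, adjusted p = 0.41.

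IFIT5 (ENSG00000152778, chr10:89414586-89421001, plus strand) had 5.06, 5.15 and 3.86 CPM in NTC DMSO, 3.87, 3.35 and 4.11 CPM in dTAG mCherry, 4.81, 4.27 and 4.73 CPM in dTAG FL-NPM1c and 2.64, 2.68 and 2.22 CPM in dTAG C-body null. The 3 dTAG C-body null libraries stood clear of all 9 others, at the bottom. IFIT5 was 1.84-fold higher with full-length NPM1c than with C-body null (log2 fold change 0.88 ± 0.14, adjusted p = 6.9e-04) and 1.87-fold lower with C-body null than in NTC DMSO (-0.90 ± 0.14, adjusted p = 1.8e-04). Its difference between C-body null and mCherry was -0.58 ± 0.15, adjusted p = 0.12. Between IFIT3 and IFIT5 lies IFIT1, and on the far side of IFIT3 lies IFIT2, 18.6 kilobases away. Neither of those 2 was called in any comparison, at 1.07 to 1.98 CPM for IFIT1 and 1.04 to 2.64 CPM for IFIT2. Their depth was lower than that of IFIT3.

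The OAS genes make the oligoadenylate messenger that activates RNase L. OAS1, OAS3 and OAS2 lie in a row on chromosome 12 with gaps of 5.1 kilobases. OAS3 had the most calls of the 3. With full-length NPM1c against C-body null the log2 fold changes were 0.45 for OAS1, 1.18 for OAS3 and 0.34 for OAS2, with OAS3 called. OAS3 (ENSG00000111331, chr12:112938352-112973249, plus strand) had 3.32, 2.80 and 3.09 CPM in NTC DMSO, 1.77, 1.87 and 1.90 CPM in dTAG mCherry, 3.94, 3.31 and 3.18 CPM in dTAG FL-NPM1c and 1.48, 1.47 and 1.64 CPM in dTAG C-body null. Libraries of NTC DMSO and dTAG FL-NPM1c lay between 2.80 and 3.94 CPM, those of dTAG mCherry and dTAG C-body null between 1.47 and 1.90 CPM, with no overlap. OAS3 was 1.66-fold lower in dTAG mCherry (log2 fold change -0.73 ± 0.14, adjusted p = 0.0013) and 2.00-fold lower in dTAG C-body null (-1.0 ± 0.14, adjusted p = 6.8e-05) than in NTC DMSO. It was 1.88-fold higher with full-length NPM1c than with mCherry (0.91 ± 0.14, adjusted p = 4.6e-04) and 2.26-fold higher than with C-body null (1.18 ± 0.14, adjusted p = 3.7e-05). All 4 calls held under each alternative that was run. With full-length NPM1c it differed from NTC DMSO by 0.18 ± 0.13, adjusted p = 0.34.

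OAS1, upstream of OAS3, was not called in any comparison. Its value in dTAG mCherry against NTC DMSO was 0.43 ± 0.16, adjusted p = 0.064, opposite in sign to that of OAS3. OAS2, downstream of OAS3, was lower with C-body null than in NTC DMSO (-0.47 ± 0.14, adjusted p = 0.016). That result ended without NTC DMSO replicates 1 or 2, or without dTAG C-body null replicates 1 or 2 (log2 fold change -0.47 to -0.39, adjusted p 0.051 to 0.091). OASL (ENSG00000135114, chr12:121019111-121039242, minus strand), an OAS-like protein without the enzyme activity, lies elsewhere on the same chromosome and was near the detection limit, with 0.422, 0.300 and 0.264 CPM in NTC DMSO, 0.829, 0.386 and 0.735 CPM in dTAG mCherry, 0.653, 0.606 and 0.509 CPM in dTAG FL-NPM1c and 0.495, 0.860 and 0.572 CPM in dTAG C-body null. The highest NTC DMSO library overlapped the lowest dTAG mCherry library, and the dTAG groups overlapped each other. OASL was higher with C-body null than in NTC DMSO (log2 fold change 0.96 ± 0.34, adjusted p = 0.046), a call lost without NTC DMSO replicates 2 or 3, or without dTAG C-body null replicates 2 or 3, or with DESeq2 (log2 fold change 0.69 to 1.04, adjusted p 0.062 to 0.22).

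Of the 9 genes for MX proteins, IFITM proteins and other factors that act at membranes, RSAD2 changed most. RSAD2 (ENSG00000134321, chr2:6865806-6898239, plus strand), or viperin, which makes a chain-terminating nucleotide, had 1.02, 1.15 and 0.634 CPM in NTC DMSO, 2.24, 2.53 and 2.81 CPM in dTAG mCherry, 1.87, 2.12 and 1.49 CPM in dTAG FL-NPM1c and 2.09, 2.33 and 1.81 CPM in dTAG C-body null. All 9 dTAG libraries lay above all 3 NTC DMSO libraries. RSAD2 was 2.68-fold higher in dTAG mCherry than in NTC DMSO (log2 fold change 1.42 ± 0.21, adjusted p = 1.1e-04). Against the same libraries it was 1.93-fold higher in dTAG FL-NPM1c (0.95 ± 0.21, adjusted p = 0.0036) and 2.21-fold higher in dTAG C-body null (1.14 ± 0.21, adjusted p = 7.3e-04), and RSAD2 was not called between the dTAG groups.

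CMPK2, a mitochondrial nucleotide kinase that supplies the substrate of viperin, starts beside RSAD2 on the opposite strand, and their exons share 14 bases. It was not called in dTAG mCherry or dTAG C-body null against NTC DMSO, where RSAD2 was higher. Its levels were 9.28, 9.15 and 8.11 CPM in NTC DMSO, 8.87, 9.33 and 7.85 CPM in dTAG mCherry, 7.43, 6.76 and 6.92 CPM in dTAG FL-NPM1c and 8.82, 9.13 and 8.58 CPM in dTAG C-body null. The dTAG FL-NPM1c libraries were the lowest of all 12 and the other groups overlapped. In dTAG mCherry against NTC DMSO its log2 fold change was -0.02 ± 0.10. CMPK2 was lower with full-length NPM1c than with C-body null (log2 fold change -0.33 ± 0.10, adjusted p = 0.049) and than in NTC DMSO (-0.33 ± 0.10, adjusted p = 0.023). The first of these calls was lost without dTAG C-body null replicates 1 or 2, or without dTAG FL-NPM1c replicates 1, 2 or 3, or with library totals only or with no low-count filter (log2 fold change -0.39 to -0.30, adjusted p 0.059 to 0.18), the second without NTC DMSO replicates 1 or 2, or without dTAG FL-NPM1c replicates 2 or 3, or with no low-count filter (log2 fold change -0.35 to -0.30, adjusted p 0.053 to 0.093).

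BST2 (tetherin), which holds budding virus at the cell surface and had the highest level per length of the list, had 137, 131 and 152 CPM in NTC DMSO, 130.3, 138 and 111 CPM in dTAG mCherry, 164, 161 and 147 CPM in dTAG FL-NPM1c and 115, 122 and 125 CPM in dTAG C-body null. Every dTAG FL-NPM1c library lay above every library of the other dTAG groups. BST2 was higher with full-length NPM1c than with mCherry (log2 fold change 0.31 ± 0.09, adjusted p = 0.025). It fell short of the threshold without dTAG FL-NPM1c replicates 1 or 2, or without dTAG mCherry replicates 1 or 3, or with the 2 groups fitted alone (log2 fold change 0.23 to 0.32, adjusted p 0.053 to 0.13). It was also higher than with C-body null (0.38 ± 0.09, adjusted p = 0.0095). Significance was lost without dTAG C-body null replicate 1, or without dTAG FL-NPM1c replicate 1 (log2 fold change 0.33 to 0.35, adjusted p 0.063). IFITM1 and IFITM2, which stop virus entry at membranes, were higher with full-length NPM1c than with mCherry (0.51 ± 0.16, adjusted p = 0.039, and 0.45 ± 0.13, adjusted p = 0.029). Both calls depended on single libraries, with IFITM1 lost without dTAG FL-NPM1c replicates 1, 2 or 3, or without dTAG mCherry replicates 1 or 3, or with library totals only or with the 2 groups fitted alone (log2 fold change 0.31 to 0.56, adjusted p 0.052 to 0.13) and IFITM2 lost without dTAG FL-NPM1c replicates 1 or 2, or without dTAG mCherry replicates 1 or 3 (log2 fold change 0.31 to 0.43, adjusted p 0.070 to 0.12). Their exons overlap on the same strand (32.5% of IFITM1 and 22.7% of IFITM2), and the family is nearly identical in sequence, so the authors' counting could split or share their reads.

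IFITM3 was not called, and its difference between full-length NPM1c and mCherry was 0.42 ± 0.15, adjusted p = 0.061. The neighbours MX1 and MX2, dynamin-like GTPases that trap viral capsids, lie 10.9 kilobases apart and were called nowhere. MX2 stood at 50.2 to 57.6 CPM and MX1 at 1.21 to 2.24 CPM. In dTAG FL-NPM1c against dTAG mCherry, MX1 differed by -0.54 ± 0.18, adjusted p = 0.056 and MX2 by 0.00 ± 0.07, adjusted p = 0.99. PLSCR1, a scramblase that also limits virus entry, was called nowhere (14.6 to 20.2 CPM).

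In the ISG15 system, the enzyme that removes the modifier was lower in all dTAG groups than in NTC DMSO, and the modifier itself was higher with full-length NPM1c than in each other group. USP18 (ENSG00000184979, chr22:18149899-18177397, plus strand) cleaves ISG15 from proteins and blocks signalling at IFNAR2, and had 7.37, 7.20 and 8.61 CPM in NTC DMSO, 3.73, 3.56 and 4.41 CPM in dTAG mCherry, 3.33, 3.61 and 3.28 CPM in dTAG FL-NPM1c and 2.89, 3.95 and 3.38 CPM in dTAG C-body null. All 9 dTAG libraries lay below all NTC DMSO libraries, and the dTAG groups overlapped. USP18 was 1.99-fold lower in dTAG mCherry than in NTC DMSO (log2 fold change -0.99 ± 0.13, adjusted p = 4.2e-05). In the other dTAG groups it was 2.27-fold lower in dTAG FL-NPM1c (-1.18 ± 0.13, adjusted p = 8.2e-06) and 2.26-fold lower in dTAG C-body null (-1.18 ± 0.13, adjusted p = 5.3e-06). The difference between the add-backs was 0.00 ± 0.14, adjusted p = 0.99.

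ISG15 (ENSG00000187608, chr1:1001138-1014540, plus strand), the ubiquitin-like modifier, had 2.63, 1.63 and 2.91 CPM in NTC DMSO, 2.40, 2.57 and 1.40 CPM in dTAG mCherry, 3.31, 4.66 and 3.33 CPM in dTAG FL-NPM1c and 1.76, 1.44 and 1.91 CPM in dTAG C-body null. The dTAG FL-NPM1c libraries were the highest of all 12, and the other groups overlapped. ISG15 was 2.20-fold higher with full-length NPM1c than with C-body null (log2 fold change 1.14 ± 0.23, adjusted p = 0.0044), 1.73-fold higher than with mCherry (0.79 ± 0.23, adjusted p = 0.028) and 1.57-fold higher than in NTC DMSO (0.65 ± 0.22, adjusted p = 0.039). The call against mCherry was lost without dTAG FL-NPM1c replicate 2, or without dTAG mCherry replicate 3 (log2 fold change 0.59 to 0.62, adjusted p 0.11 to 0.13), and that against NTC DMSO without NTC DMSO replicates 1 or 2, or without dTAG FL-NPM1c replicates 1 or 2 (log2 fold change 0.41 to 0.73, adjusted p 0.053 to 0.21). HERC5, the main ligase that attaches ISG15, and its neighbour HERC6 were called nowhere (6.60 to 9.84 CPM and 3.50 to 5.42 CPM). For HERC5 the difference between the add-backs was 0.34 ± 0.12, adjusted p = 0.087.

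Of the 5 IFI genes, IFI44 (2 to 11 counts per library) and IFI44L (1 to 8), neighbours on chromosome 1 that are induced strongly by interferon, were nearly silent in all groups. IFI6, a mitochondrial and endoplasmic reticulum protein, was called nowhere (2.66 to 4.23 CPM). IFI27 (ENSG00000165949, chr14:94104836-94116698, plus strand), a mitochondrial protein widely used as a blood marker of interferon exposure, had 0.496, 0.350 and 0.661 CPM in NTC DMSO, 0.359, 0.450 and 0.334 CPM in dTAG mCherry, 0.261, 0.233 and 0.279 CPM in dTAG FL-NPM1c and 0.357, 0.304 and 0.214 CPM in dTAG C-body null. The dTAG FL-NPM1c libraries lay below the NTC DMSO libraries and the dTAG C-body null libraries overlapped both. IFI27 was lower in dTAG FL-NPM1c than in NTC DMSO (log2 fold change -0.94 ± 0.31, adjusted p = 0.032). It was no longer called without NTC DMSO replicates 1 or 3, or without dTAG FL-NPM1c replicates 1, 2 or 3, or with DESeq2 or with no low-count filter (log2 fold change -1.01 to -0.70, adjusted p 0.053 to 0.14). IFI35, a partner of NMI, was higher with full-length NPM1c than with C-body null (0.45 ± 0.14, adjusted p = 0.048), at 11.7 ± 0.481 against 8.54 ± 1.07 CPM, lost without dTAG C-body null replicates 1, 2 or 3, or without dTAG FL-NPM1c replicates 1, 2 or 3, or with RLE factors or with library totals only (log2 fold change 0.35 to 0.48, adjusted p 0.053 to 0.22).

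The ADP-ribosyltransferases of the list differed in which dTAG groups they were lower. PARP14, which modifies STAT signalling, had 33.7, 33.6 and 29.6 CPM in NTC DMSO, 27.7, 26.2 and 28.6 CPM in dTAG mCherry, 31.2, 31.2 and 34.7 CPM in dTAG FL-NPM1c and 22.9, 22.8 and 20.2 CPM in dTAG C-body null. The dTAG C-body null libraries were the lowest and the dTAG FL-NPM1c and NTC DMSO libraries overlapped. PARP14 was 1.47-fold higher with full-length NPM1c than with C-body null (log2 fold change 0.56 ± 0.09, adjusted p = 5.1e-04) and lower with C-body null than in NTC DMSO (-0.56 ± 0.09, adjusted p = 1.7e-04). PARP12, a zinc finger enzyme that restricts RNA viruses, was lower than in NTC DMSO in dTAG mCherry (-0.40 ± 0.09, adjusted p = 0.0029), dTAG FL-NPM1c (-0.37 ± 0.09, adjusted p = 0.0045) and dTAG C-body null (-0.56 ± 0.09, adjusted p = 1.3e-04), from 21.8 ± 1.35 CPM to group means of 16.5 ± 1.18, 16.8 ± 0.468 and 14.8 ± 0.454 CPM. The call of PARP9, the partner of the ubiquitin ligase DTX3L, against NTC DMSO with C-body null (-0.34 ± 0.11, adjusted p = 0.027) was lost without NTC DMSO replicates 1, 2 or 3, or without dTAG C-body null replicates 2 or 3, or with no low-count filter (log2 fold change -0.36 to -0.30, adjusted p 0.052 to 0.11). DTX3L, whose annotated span overlaps that of PARP9 on the opposite strand, was called nowhere, and its value in that comparison was -0.24 ± 0.09, adjusted p = 0.051.

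TRIM22 had the largest log2 fold change of the 50 tested members in the comparisons with NTC DMSO. TRIM22 (ENSG00000132274, chr11:5689689-5737089, plus strand), a TRIM-family ubiquitin ligase that restricts several viruses, had 27.1, 27.1 and 21.9 CPM in NTC DMSO, 108, 104 and 125 CPM in dTAG mCherry, 77.4, 81.3 and 83.6 CPM in dTAG FL-NPM1c and 122, 119.9 and 113 CPM in dTAG C-body null. Every dTAG library lay above every NTC DMSO library, and the dTAG FL-NPM1c libraries lay below those of the other dTAG groups without overlap. TRIM22 was 4.43-fold higher in dTAG mCherry than in NTC DMSO (log2 fold change 2.15 ± 0.10, adjusted p = 2.0e-10). Against the same libraries it was 3.19-fold higher in dTAG FL-NPM1c (1.67 ± 0.10, adjusted p = 4.1e-09) and 4.67-fold higher in dTAG C-body null (2.22 ± 0.10, adjusted p = 9.9e-11). It was 1.39-fold lower with full-length NPM1c than with mCherry (-0.47 ± 0.09, adjusted p = 0.0031) and 1.47-fold lower than with C-body null (-0.55 ± 0.09, adjusted p = 8.5e-04). All 5 calls held under each alternative that was run.

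TRIM5, the factor that recognises retroviral capsids, has an annotated span that overlaps TRIM22 on the opposite strand, and it was called nowhere. Its levels were 16.7, 16.6 and 15.5 CPM in NTC DMSO, 15.2, 14.7 and 17.3 CPM in dTAG mCherry, 12.8, 13.8 and 14.3 CPM in dTAG FL-NPM1c and 15, 13.7 and 12.6 CPM in dTAG C-body null, and its value in dTAG mCherry against NTC DMSO was -0.05 ± 0.10, adjusted p = 0.77. TRIM21, an intracellular antibody receptor on the same chromosome, was called once, higher with C-body null than in NTC DMSO (0.25 ± 0.08, adjusted p = 0.035). The call was lost without NTC DMSO replicates 1 or 2, or without dTAG C-body null replicates 1, 2 or 3, or with no low-count filter or with the 2 groups fitted alone (log2 fold change 0.23 to 0.28, adjusted p 0.051 to 0.16).

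PML and SP100 build the same nuclear body and went opposite ways with full-length NPM1c. PML, its scaffold, had 21.0, 19.5 and 23.9 CPM in NTC DMSO, 22.2, 25.5 and 18.4 CPM in dTAG mCherry, 29.8, 32.4 and 28.7 CPM in dTAG FL-NPM1c and 22.1, 21.8 and 24.0 CPM in dTAG C-body null. For PML, all other libraries lay below those of dTAG FL-NPM1c. PML was higher with full-length NPM1c than in NTC DMSO (log2 fold change 0.50 ± 0.11, adjusted p = 0.0039), with mCherry (0.45 ± 0.11, adjusted p = 0.014) and with C-body null (0.42 ± 0.11, adjusted p = 0.025). The calls against mCherry and C-body null depended on single libraries. The first was lost without dTAG FL-NPM1c replicate 2, or without dTAG mCherry replicate 3 (log2 fold change 0.34 to 0.40, adjusted p 0.055 to 0.069), the second without dTAG C-body null replicates 1 or 2, or without dTAG FL-NPM1c replicates 1 or 2 (log2 fold change 0.36 to 0.40, adjusted p 0.069 to 0.12).

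SP100, the other core component of the body, had 52.3, 50.2 and 47.7 CPM in NTC DMSO, 64.5, 58.9 and 68.9 CPM in dTAG mCherry, 47.4, 43.9 and 48.6 CPM in dTAG FL-NPM1c and 63.6, 61.2 and 59.6 CPM in dTAG C-body null. The dTAG mCherry and dTAG C-body null libraries were the high ones, and NTC DMSO overlapped dTAG FL-NPM1c. SP100 was lower with full-length NPM1c than with mCherry (log2 fold change -0.46 ± 0.08, adjusted p = 0.0014) and than with C-body null (-0.40 ± 0.08, adjusted p = 0.0038), and higher in dTAG mCherry (0.36 ± 0.08, adjusted p = 0.0039) and in dTAG C-body null (0.30 ± 0.08, adjusted p = 0.011) than in NTC DMSO. The call for C-body null against NTC DMSO was lost without NTC DMSO replicate 2, or without dTAG C-body null replicate 1 (log2 fold change 0.27 to 0.30, adjusted p 0.053 to 0.055). SP110, a relative of SP100, was higher with full-length NPM1c than in NTC DMSO (0.30 ± 0.09, adjusted p = 0.017). That result ended without NTC DMSO replicate 2, or without dTAG FL-NPM1c replicates 1 or 3, or with no low-count filter (log2 fold change 0.27 to 0.29, adjusted p 0.064 to 0.086). Exons of SP110 share 20.9% of their bases with genes on the opposite strand.

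Among the factors that restrict viral nucleic acids, SAMHD1 was higher and SAMD9 and SAMD9L were lower in dTAG C-body null than in NTC DMSO. SAMHD1 (ENSG00000101347, chr20:36889773-36951901, minus strand) depletes the nucleotide pool and blocks reverse transcription in myeloid cells, and had 147, 149 and 139 CPM in NTC DMSO, 291, 297 and 297 CPM in dTAG mCherry, 242, 245 and 260.1 CPM in dTAG FL-NPM1c and 342, 369 and 339 CPM in dTAG C-body null. No group overlapped another. The order from low to high was NTC DMSO, dTAG FL-NPM1c, dTAG mCherry and dTAG C-body null. SAMHD1 was 2.04-fold higher in dTAG mCherry than in NTC DMSO (log2 fold change 1.03 ± 0.07, adjusted p = 1.3e-08). Against the same libraries it was 1.72-fold higher in dTAG FL-NPM1c (0.78 ± 0.07, adjusted p = 4.1e-07) and 2.41-fold higher in dTAG C-body null (1.27 ± 0.07, adjusted p = 7.0e-10). It was lower with full-length NPM1c than with C-body null (-0.49 ± 0.07, adjusted p = 1.2e-04) and than with mCherry (-0.24 ± 0.07, adjusted p = 0.022), the latter lost without dTAG FL-NPM1c replicates 1 or 2, or without dTAG mCherry replicate 3, or with no low-count filter or with the 2 groups fitted alone (log2 fold change -0.26 to -0.23, adjusted p 0.060 to 0.096). The difference of C-body null from mCherry was 0.25 ± 0.07, adjusted p = 0.14, beside a DESeq2 call of the same direction.

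SAMD9 (ENSG00000205413, chr7:93099513-93118023, minus strand), a cytoplasmic nuclease-like factor that halts protein synthesis and is mutated in inherited marrow failure, had 24.3, 24.2 and 21.6 CPM in NTC DMSO, 18.8, 18.7 and 25.3 CPM in dTAG mCherry, 18.2, 21.4 and 23.4 CPM in dTAG FL-NPM1c and 15.7, 15.6 and 12.8 CPM in dTAG C-body null. The dTAG C-body null libraries lay below all others. SAMD9 was lower with C-body null than in NTC DMSO (log2 fold change -0.67 ± 0.13, adjusted p = 9.2e-04) and higher with full-length NPM1c than with C-body null (0.52 ± 0.13, adjusted p = 0.015), the latter lost without dTAG C-body null replicates 2 or 3, or without dTAG FL-NPM1c replicates 2 or 3 (log2 fold change 0.40 to 0.54, adjusted p 0.055 to 0.10). Its paralog SAMD9L (ENSG00000177409, chr7:93130055-93148369, minus strand), 12.0 kilobases away, had 11.7, 9.95 and 9.33 CPM in NTC DMSO, 8.26, 8.41 and 10.3 CPM in dTAG mCherry, 7.19, 7.72 and 8.55 CPM in dTAG FL-NPM1c and 7.28, 7.14 and 5.84 CPM in dTAG C-body null. Its dTAG C-body null libraries overlapped those of dTAG FL-NPM1c. SAMD9L was lower than in NTC DMSO with C-body null (log2 fold change -0.61 ± 0.13, adjusted p = 0.0017) and with full-length NPM1c (-0.40 ± 0.12, adjusted p = 0.026), the latter lost without NTC DMSO replicate 1, or without dTAG FL-NPM1c replicates 1 or 2 (log2 fold change -0.39 to -0.30, adjusted p 0.076 to 0.14), and reads of the pair could be split by the counting.

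ISG20 (ENSG00000172183, chr15:88636153-88656483, plus strand), an exonuclease for single-stranded RNA, was near the detection limit, with 0.372, 0.150 and 0.211 CPM in NTC DMSO, 0.304, 0.322 and 0.434 CPM in dTAG mCherry, 0.610, 0.746 and 0.476 CPM in dTAG FL-NPM1c and 0.412, 0.177 and 0.381 CPM in dTAG C-body null. No library of another group reached those of dTAG FL-NPM1c. ISG20 was higher with full-length NPM1c than in NTC DMSO (log2 fold change 1.29 ± 0.36, adjusted p = 0.014). It fell short of the threshold without NTC DMSO replicate 2, or without dTAG FL-NPM1c replicate 2 (log2 fold change 1.00 to 1.12, adjusted p 0.060 to 0.086).

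GBP2 (ENSG00000162645, chr1:89106132-89150456, minus strand), a guanylate-binding GTPase that coats intracellular pathogens, had 1.04, 1.03 and 0.951 CPM in NTC DMSO, 3.26, 2.87 and 2.81 CPM in dTAG mCherry, 2.33, 2.29 and 2.13 CPM in dTAG FL-NPM1c and 1.70, 2.00 and 2.22 CPM in dTAG C-body null. All dTAG libraries lay above all NTC DMSO libraries, and those of dTAG mCherry were the highest. GBP2 was 2.96-fold higher in dTAG mCherry than in NTC DMSO (log2 fold change 1.56 ± 0.16, adjusted p = 1.5e-06). In the other dTAG groups it was 2.23-fold higher in dTAG FL-NPM1c (1.16 ± 0.16, adjusted p = 5.8e-05) and 1.96-fold higher in dTAG C-body null (0.97 ± 0.16, adjusted p = 2.4e-04). GBP1, 40.8 kilobases away, had 0 to 5 counts per library. Of the remaining members, XAF1, a partner of the apoptosis inhibitor XIAP, was lower with C-body null than in NTC DMSO (-0.27 ± 0.08, adjusted p = 0.023). Significance was lost without NTC DMSO replicates 1 or 2, or without dTAG C-body null replicates 2 or 3 (log2 fold change -0.29 to -0.22, adjusted p 0.059 to 0.13). Exons of XAF1 share 38.3% of their bases with PRAL on the opposite strand. EPSTI1, an interferon-induced regulator of macrophages, had 2 to 12 counts per library.

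The members that were higher in all dTAG groups (STAT2, RSAD2, TRIM22, SAMHD1 and GBP2) had the same direction as the monocyte and macrophage markers. USP18 and PARP12, lower in all dTAG groups, had the opposite direction. Of the markers, 15 of 15 were higher in dTAG mCherry than in NTC DMSO, 12 higher and 1 lower in dTAG FL-NPM1c and 15 higher in dTAG C-body null. The marker sums given above went from at most 602 CPM to at least 3243 CPM. Between the add-backs, 9 of the 15 markers were lower and none higher with full-length NPM1c. Of the members, TRIM22, SP100, SAMHD1 and CMPK2 were lower there too, while 12 were higher. Against mCherry, 2 markers were higher and 6 lower with full-length NPM1c. The part of this marker change in the levels of the members was not tested. In bulk RNA, fewer cells of a type and less RNA per cell cannot be told apart.

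Beyond the members, the pathway was read from 62 further genes, of which 46 were tested. In dTAG mCherry against NTC DMSO 16 were higher and 2 lower. With full-length NPM1c, 10 were higher and 7 lower than with mCherry, 8 higher and 7 lower than with C-body null, and 22 higher and none lower than in NTC DMSO. With C-body null, 1 was higher than with mCherry, and 18 were higher and 3 lower than in NTC DMSO. The backgrounds are those given for the members. The median log2 fold change of the 46 was 0.15 for mCherry and 0.28 for full-length NPM1c against NTC DMSO, and -0.03 between the add-backs. None of the 10 interferon genes on the list was expressed at a level that could be measured. Other interferon genes were not looked up. Of 10 genes for type I, II and III interferons, IFNA1, IFNA2, IFNE, IFNL2, IFNL3 and IFNG had 0 counts in all 12 libraries, which allows a level of up to 0.00602 CPM (3 counts over all of them). IFNB1 and IFNW1 had 3 counts each in all and IFNK and IFNL1 had 1 count each, with at most 2 counts in 1 library.

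Both receptor chains were present throughout. IFNAR1 had 75.5, 67.7 and 57.5 CPM in NTC DMSO, 63.9, 61.9 and 75.2 CPM in dTAG mCherry, 53.4, 59.7 and 62.6 CPM in dTAG FL-NPM1c and 62.7, 64.0 and 57.2 CPM in dTAG C-body null, and was called in no comparison. IFNAR2 had 93.8, 95.4 and 89.6 CPM in NTC DMSO, 114, 112 and 128 CPM in dTAG mCherry, 87.9, 89.5 and 90.6 CPM in dTAG FL-NPM1c and 116, 111 and 107 CPM in dTAG C-body null. Its dTAG mCherry and dTAG C-body null libraries were the high ones. IFNAR2 was higher in dTAG mCherry than in NTC DMSO (log2 fold change 0.34 ± 0.07, adjusted p = 0.0026) and lower with full-length NPM1c than with mCherry (-0.40 ± 0.07, adjusted p = 0.0019) and than with C-body null (-0.32 ± 0.07, adjusted p = 0.0098, lost without dTAG C-body null replicate 1 (log2 fold change -0.29, adjusted p 0.066)). The receptor chains for interferon gamma, IFNGR1 and IFNGR2, had the same signs, at 0.56 and 0.92 in dTAG mCherry against NTC DMSO and -0.56 and -0.28 with full-length NPM1c against mCherry, all called. The IFNGR2 call in the second comparison was lost without dTAG FL-NPM1c replicates 2 or 3, or without dTAG mCherry replicate 3, or with the 2 groups fitted alone (log2 fold change -0.27 to -0.23, adjusted p 0.079 to 0.11). Against C-body null, IFNGR1 (-0.40) and IFNGR2 (-0.31) were lower with full-length NPM1c, IFNGR1 with a call lost without dTAG C-body null replicates 1 or 2, or without dTAG FL-NPM1c replicates 1, 2 or 3 (log2 fold change -0.45 to -0.38, adjusted p 0.061 to 0.098), and IFNGR2 with one lost without dTAG C-body null replicates 1 or 2, or without dTAG FL-NPM1c replicates 2 or 3 (log2 fold change -0.34 to -0.25, adjusted p 0.050 to 0.089). The kinases JAK2 (0.68) and TYK2 (0.40) and the receptor chain IL10RB (0.59) were also higher in dTAG mCherry than in NTC DMSO, TYK2 with a call lost without NTC DMSO replicates 1 or 2, or without dTAG mCherry replicates 1 or 2, or with the 2 groups fitted alone (log2 fold change 0.24 to 0.41, adjusted p 0.060 to 0.14).

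IRF8, a lineage factor of monocytes and dendritic cells, was the 1 pathway gene of 46 called with C-body null against mCherry (0.40 ± 0.06, adjusted p = 0.0046, lost with the 2 groups fitted alone (log2 fold change 0.40, adjusted p 0.059)), and it was lower with full-length NPM1c than with C-body null (-0.37 ± 0.06, adjusted p = 7.2e-04). In dTAG mCherry against NTC DMSO, IRF5 (0.69) and IRF8 (0.49) were higher and IRF2, a repressor of interferon genes, was lower (-0.36).

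Of the 14 tested sensors of nucleic acids and their adaptors, 4 were higher and 1 lower in dTAG mCherry than in NTC DMSO, beside 12.9% and 9.69% of all genes. TLR8 had 0.397, 0.600 and 0.291 CPM in NTC DMSO, 8.29, 7.53 and 8.92 CPM in dTAG mCherry, 5.21, 3.71 and 3.86 CPM in dTAG FL-NPM1c and 9.04, 8.07 and 7.48 CPM in dTAG C-body null. Its lowest dTAG library was at 3.71 CPM and its highest NTC DMSO library at 0.600 CPM. TLR8 was 19.0-fold higher in dTAG mCherry than in NTC DMSO (log2 fold change 4.24 ± 0.21, adjusted p = 5.4e-10) and lower with full-length NPM1c than with mCherry (-0.95 ± 0.15, adjusted p = 6.6e-04). TLR7 was called higher too (adjusted p = 0.0040), from 1, 1 and 0 counts in the NTC DMSO libraries to 0.470, 0.300 and 0.134 CPM in dTAG mCherry. AIM2, the DNA sensor of the inflammasome, was 6.01-fold higher (2.59 ± 0.26, adjusted p = 1.5e-06), and MYD88 (0.25) was higher, as was PTPN2, a phosphatase counted among the negative regulators (0.26), with MYD88 lost without NTC DMSO replicate 1, or without dTAG mCherry replicate 1, or with no low-count filter or with the 2 groups fitted alone (log2 fold change 0.22 to 0.25, adjusted p 0.053 to 0.13) and PTPN2 lost without NTC DMSO replicates 2 or 3, or without dTAG mCherry replicates 1 or 3, or with RLE factors or with no low-count filter or with the 2 groups fitted alone (log2 fold change 0.20 to 0.29, adjusted p 0.054 to 0.15). With full-length NPM1c, PTPN2 was lower than with mCherry (-0.33 ± 0.08, adjusted p = 0.016). It was no longer called without dTAG FL-NPM1c replicate 2, or without dTAG mCherry replicates 1 or 3 (log2 fold change -0.34 to -0.27, adjusted p 0.056 to 0.072). MYD88 was lower than with C-body null (-0.23 ± 0.07, adjusted p = 0.047). The call was lost without dTAG C-body null replicates 1, 2 or 3, or without dTAG FL-NPM1c replicates 1, 2 or 3, or with library totals only or with no low-count filter (log2 fold change -0.29 to -0.21, adjusted p 0.055 to 0.20). TLR8 was lower than with C-body null as well (-0.95 ± 0.15, adjusted p = 5.8e-04). CGAS, the DNA sensor that signals through STING1, was the sensor lower in dTAG mCherry than in NTC DMSO (-0.35 ± 0.10, adjusted p = 0.016). That result ended without NTC DMSO replicate 3, or without dTAG mCherry replicate 1, or with the 2 groups fitted alone (log2 fold change -0.34 to -0.29, adjusted p 0.051 to 0.092).

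Of 10 tested genes on a list that leans towards interferon gamma, 6 were higher and 2 lower with full-length NPM1c than with mCherry. Against C-body null, 5 were higher and 1 lower. The shares over all genes were 7.58% higher and 7.95% lower against mCherry and 4.82% and 4.86% against C-body null. The CXCR3 ligand CXCL11 had 0.620, 0.975 and 0.502 CPM in NTC DMSO, 0.608, 0.493 and 0.702 CPM in dTAG mCherry, 1.44, 2.22 and 2.02 CPM in dTAG FL-NPM1c and 0.220, 0.304 and 0.357 CPM in dTAG C-body null. No other library reached the lowest of dTAG FL-NPM1c. CXCL11 was 6.33-fold higher with full-length NPM1c than with C-body null (log2 fold change 2.66 ± 0.28, adjusted p = 1.0e-05) and 3.19-fold higher than with mCherry (1.67 ± 0.25, adjusted p = 4.2e-04), and lower with C-body null than in NTC DMSO (-1.23 ± 0.33, adjusted p = 0.0096, lost without NTC DMSO replicate 2 (log2 fold change -0.92, adjusted p 0.073)). The neighbouring ligands CXCL9, at 0.949 ± 0.0550 CPM in dTAG FL-NPM1c against 0.155 ± 0.0330 CPM in dTAG mCherry, and CXCL10, at 0.554 ± 0.175 against 0.0977 ± 0.0661 CPM, were 5.88-fold and 6.11-fold higher (adjusted p = 5.8e-05 and 0.0028). Against C-body null they were 7.82-fold and 5.00-fold higher (adjusted p = 1.5e-05 and 0.0043).

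GBP4 had 0.719, 0.775 and 0.528 CPM in NTC DMSO, 1.27, 1.27 and 1.20 CPM in dTAG mCherry, 2.57, 2.80 and 3.08 CPM in dTAG FL-NPM1c and 1.04, 1.01 and 0.929 CPM in dTAG C-body null. The dTAG FL-NPM1c libraries were again the highest, whereas for GBP2 the dTAG mCherry libraries were. GBP4 was 2.26-fold higher with full-length NPM1c than with mCherry (log2 fold change 1.18 ± 0.16, adjusted p = 1.4e-04) and 2.84-fold higher than with C-body null (1.50 ± 0.16, adjusted p = 1.2e-05). PSMB9, an immunoproteasome subunit, was 1.87-fold higher than with mCherry (0.90 ± 0.11, adjusted p = 8.3e-05) and 1.65-fold higher than with C-body null (0.72 ± 0.11, adjusted p = 4.7e-04). TAP1, the peptide transporter encoded beside it, was higher than with mCherry (0.41 ± 0.09, adjusted p = 0.0069). It fell short of the threshold without dTAG mCherry replicate 1 (log2 fold change 0.34, adjusted p 0.054). GBP3 (-0.55) and the adhesion molecule ICAM1 (-0.82) were lower, GBP3 with a call lost without dTAG FL-NPM1c replicate 2 (log2 fold change -0.43, adjusted p 0.083). ICAM1 was also lower than with C-body null (-0.75 ± 0.14, adjusted p = 0.0019) and higher in dTAG mCherry than in NTC DMSO (1.44 ± 0.15, adjusted p = 1.9e-06).

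The enzymes that activate and carry ISG15 were, like ISG15, higher with full-length NPM1c than with mCherry and than with C-body null. UBA7, its activating enzyme, had 18.6, 19.2 and 25.9 CPM in NTC DMSO, 21.2, 29.2 and 18.1 CPM in dTAG mCherry, 33.6, 35.7 and 34.1 CPM in dTAG FL-NPM1c and 20.8, 23.6 and 23.0 CPM in dTAG C-body null. Its dTAG FL-NPM1c libraries were the highest of all 12. UBA7 was higher with full-length NPM1c than with mCherry (log2 fold change 0.59 ± 0.15, adjusted p = 0.015, lost without dTAG FL-NPM1c replicate 2, or without dTAG mCherry replicates 1 or 3 (log2 fold change 0.45 to 0.56, adjusted p 0.057 to 0.061)) and than with C-body null (0.62 ± 0.15, adjusted p = 0.013, lost without dTAG C-body null replicate 1, or without dTAG FL-NPM1c replicate 2 (log2 fold change 0.56 to 0.59, adjusted p 0.053 to 0.072)). UBE2L6, the conjugating enzyme, was higher than with mCherry (0.41 ± 0.08, adjusted p = 0.0051) and than with C-body null (0.37 ± 0.08, adjusted p = 0.0096, lost without dTAG C-body null replicate 1, or without dTAG FL-NPM1c replicate 1 (log2 fold change 0.31 to 0.34, adjusted p 0.060 to 0.076)). SOCS1, the feedback inhibitor of JAK kinases, was higher than with mCherry (1.69 ± 0.47, adjusted p = 0.024) at 0.329 ± 0.0814 against 0.103 ± 0.0615 CPM, lost without dTAG FL-NPM1c replicates 1 or 2, or without dTAG mCherry replicates 2 or 3 (log2 fold change 1.24 to 1.70, adjusted p 0.062 to 0.096). IRF2BP1, a co-repressor of IRF2, was higher than with mCherry (0.56 ± 0.16, adjusted p = 0.028). Significance was lost without dTAG FL-NPM1c replicates 1 or 2, or without dTAG mCherry replicate 3 (log2 fold change 0.37 to 0.51, adjusted p 0.096 to 0.11). It was also higher than with C-body null (0.54 ± 0.16, adjusted p = 0.046). It was no longer called without dTAG C-body null replicates 1 or 2, or without dTAG FL-NPM1c replicates 1 or 2, or with RLE factors or with library totals only (log2 fold change 0.44 to 0.55, adjusted p 0.052 to 0.19). IRF2BP2, its paralog, was higher in dTAG mCherry than in NTC DMSO (0.18 ± 0.06, adjusted p = 0.044). The call was lost without NTC DMSO replicates 1, 2 or 3, or without dTAG mCherry replicates 1 or 3, or with RLE factors or with no low-count filter or with the 2 groups fitted alone (log2 fold change 0.15 to 0.19, adjusted p 0.071 to 0.31).

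Against NTC DMSO, the pathway genes called higher with full-length NPM1c, with their log2 fold changes, were JAK2 (0.39), TYK2 (0.39), IFNGR2 (0.64), IL10RB (0.39), IRF5 (0.71), IRF8 (0.52), TLR8 (3.29), TICAM1 (0.53), AIM2 (2.50), TREX1 (0.60), SOCS1 (1.43), UBA7 (0.70), UBE2L6 (0.34), IRF2BP2 (0.21), CXCL9 (2.78), CXCL10 (2.56), CXCL11 (1.43), GBP4 (2.06), WARS1 (0.19), ICAM1 (0.62), PSMB9 (0.78) and TAP1 (0.64). TICAM1 is the adaptor of TLR3, TREX1 degrades cytosolic DNA and WARS1 is a tRNA synthetase that interferon gamma induces. Calls that single libraries or settings decided, each with its log2 fold change and adjusted p there, were JAK2 without NTC DMSO replicate 3, or without dTAG FL-NPM1c replicate 3 (0.29 to 0.31, adjusted p 0.060 to 0.082), TYK2 without NTC DMSO replicates 1 or 2, or without dTAG FL-NPM1c replicates 1 or 2 (0.29 to 0.36, adjusted p 0.096 to 0.16), TICAM1 without NTC DMSO replicates 1 or 2, or without dTAG FL-NPM1c replicates 1 or 2 (0.44 to 0.52, adjusted p 0.054 to 0.087) and TREX1 without NTC DMSO replicates 1 or 2, or without dTAG FL-NPM1c replicates 1 or 2 (0.50 to 0.56, adjusted p 0.056 to 0.085). Others were SOCS1 without NTC DMSO replicates 1 or 2, or without dTAG FL-NPM1c replicates 1 or 2, or with DESeq2 (1.03 to 1.62, adjusted p 0.053 to 0.14), UBE2L6 without NTC DMSO replicate 2 (0.29, adjusted p 0.056), IRF2BP2 without NTC DMSO replicates 1 or 2, or without dTAG FL-NPM1c replicates 1 or 2, or with no low-count filter (0.17 to 0.22, adjusted p 0.053 to 0.16) and WARS1 without NTC DMSO replicates 1 or 2, or without dTAG FL-NPM1c replicates 1, 2 or 3, or with RLE factors or with no low-count filter or with the 2 groups fitted alone (0.15 to 0.20, adjusted p 0.057 to 0.22).

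With C-body null against NTC DMSO, the higher ones were TLR7, IFNAR2 (0.26), JAK2 (0.65), TYK2 (0.51), IFNGR1 (0.40), IFNGR2 (0.95), IL10RB (0.58), STAT3 (0.39), IRF5 (1.04), IRF8 (0.90), IKBKE (0.44), TLR8 (4.24), MYD88 (0.35), AIM2 (2.86), IRF2BP2 (0.21), GBP4 (0.55), ICAM1 (1.37) and TAP1 (0.39), and the lower ones were IRF2 (-0.39), CGAS (-0.35) and CXCL11 (-1.23). TLR7 went from at most 1 count to 0.220, 0.329 and 0.0238 CPM, and its call ended without NTC DMSO replicate 1 or 3 or dTAG C-body null replicate 1 or 2 (adjusted p 0.055 to 0.12). Decided in the same way were IFNAR2 without dTAG C-body null replicates 1 or 2, or with no low-count filter (0.23 to 0.26, adjusted p 0.053 to 0.071) and CGAS without dTAG C-body null replicate 3 (-0.32, adjusted p 0.061), as well as IRF2BP2 without NTC DMSO replicate 2, or without dTAG C-body null replicates 1 or 3, or with no low-count filter (0.19 to 0.21, adjusted p 0.059 to 0.12) and GBP4 without NTC DMSO replicates 1, 2 or 3, or without dTAG C-body null replicates 1, 2 or 3, or with DESeq2 or with no low-count filter or with the 2 groups fitted alone (0.41 to 0.66, adjusted p 0.053 to 0.17).

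**Figure D4:**
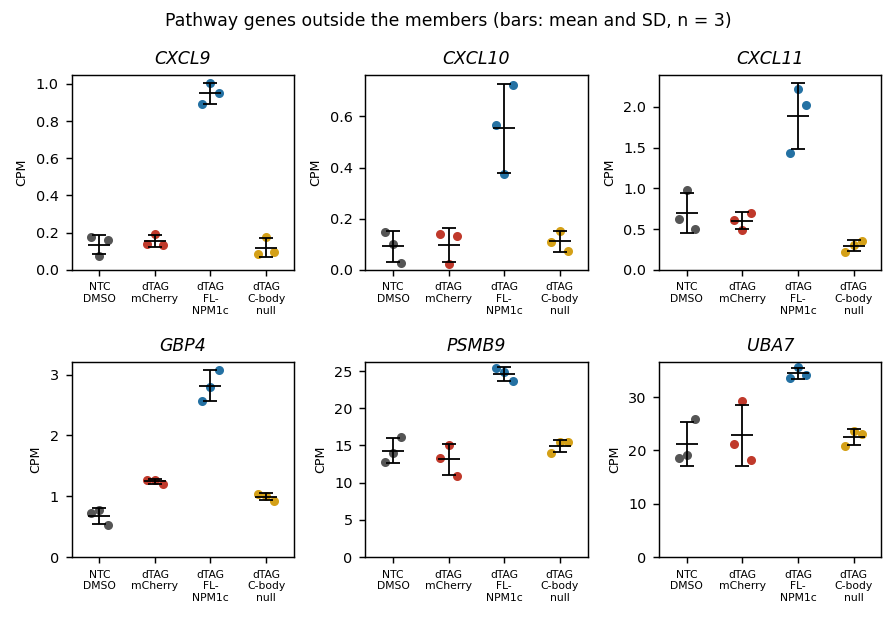
Levels in CPM (vertical axes, each from 0) of 6 pathway genes outside the 54 members in the 12 libraries by group, with points for libraries and bars for the group mean and SD (n = 3). CXCL9, CXCL10, CXCL11, GBP4, PSMB9 and UBA7 are each highest in the 3 dTAG FL-NPM1c libraries, with CXCL11 between 1.44 and 2.22 CPM there and at most 0.975 CPM elsewhere.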

How the data were processed

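Per the labels' protocols, total RNA of 12 OCI-AML3 samples went into stranded mRNA libraries. The authors deposited whole-number counts per Ensembl gene in 1 table. The submitters' processing notes list STAR, featureCounts, DESeq2 and hg38. Tool versions, gene annotation, strand setting and multi-mapping rule of the counting are not given here. Of 78936 lines, 6 broken ones (2 genes) were left out. Column names were tied to samples through the library number in the labels, an inference, and groups come from titles. A gene name table gave 61479 symbols and GENCODE 29 gave 54, and 17397 genes stayed without one. Gene positions and exon lengths are from GENCODE 29 (GRCh38).

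All 12 libraries entered 1 fit in edgeR 4.0.16 (limma 3.58.1, R 4.3.3), with glmQLFit (robust) and glmQLFTest, 1 mean per group and no covariate. filterByExpr kept 24064 genes and dropped 0.0795% of counts. TMM factors ran from 0.975 to 1.02 and the common biological coefficient of variation was 0.0975. P-values were adjusted by Benjamini-Hochberg over all genes in each of 6 contrasts, and adjusted p under 0.05 was called. A standard error is |log2 fold change| over the square root of F. CPM rests on the totals of the kept genes multiplied by the TMM factors. The fit was also run on simulated counts with known changes in 200 genes of dTAG mCherry. No deviating library was simulated, and the outcome is not reported here.

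Pairs of libraries in a group gave chi-square values per degree of freedom from 3.72 to 37.7, so no library is a copy of another in its group. Pairs across groups were not compared in this way. The members and lists were chosen with earlier results of these data known. By rule, values per library are printed for members with a called log2 fold change of 0.58 or more in size. BST2, CMPK2, PARP14, PML, SP100, TRIM5 and COL1A2 were added after their values were seen. Pathway genes are named where called, with IFNAR1, IFNAR2 and the interferons in any case, and 1 gene of the pathway list is not reported here. The alternatives were DESeq2 1.42.0, RLE scaling, unscaled totals, 2 other low-count filters (none, or 50 counts in 3 libraries), the compared groups alone, a replicate block and single libraries left out. They were extended to pathway genes after seeing the data. Limits for counts of 0 rest on unscaled library totals and cover counting error only. Promoter windows are from a RefSeq table (GRCh38.p14), searched on both strands in Python 3.11.15.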

Additional observations from a re-analysis of the deposited data

How the results depend on the processing

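No value changed sign among the calls of single genes, and 47 of the 78 calls of members held under every alternative that gave a value (10 of 11 in dTAG mCherry against NTC DMSO, 4 of 13 for full-length NPM1c against mCherry, 9 of 16 between the add-backs, 9 of 17 for full-length NPM1c and 15 of 21 for C-body null against NTC DMSO). Of 94 calls of pathway genes, 60 held. IFI27, ISG20 and OASL could not be tested at 50 counts in 3 libraries. Members called for full-length NPM1c against mCherry fell from 13 to 8 with the replicate block, from 16 to 12 between the add-backs, and from 17 to 14 for full-length NPM1c and 21 to 18 for C-body null against NTC DMSO. The block left 11 and 0 in the remaining comparisons. Over all genes, calls in these comparisons, in the order given, went from 15.5% to 10.5%, 9.68% to 7.42%, 27.9% to 23.3% and 26.6% to 22.9%. In the remaining ones they went from 22.6% to 19% and from 0.594% to 0.357%. Calls described as lost in the results do not count the block. Replicate numbers did not pair the samples (correlations of deviations -0.31 to 0.16 in 18 same-numbered pairs, with 2 over 0.1, against -0.26 to 0.40 in 36 others, with 10 over 0.1), and no library correlated best with one of its own number. For C-body null against mCherry the share of all genes called went from 0.594% to 1.48% with DESeq2 and to 0.766% with no low-count filter. The member count there went from 0 to 3 and to 1. Between the add-backs the member count went from 16 to 25 with the 2 groups alone, where the share of all genes went from 9.68% to 18.4%. The median between the add-backs went from 0.23 to 0.18 with no low-count filter. Leaving out each library in turn gave 10 to 16 calls and a median of -0.080 to -0.012 for mCherry against NTC DMSO, 5 to 17 and -0.062 to 0.033 for full-length NPM1c against mCherry, 0 to 9 and -0.23 to -0.14 for C-body null against mCherry, 10 to 14 and 0.18 to 0.25 between the add-backs, 11 to 20 and 0.019 to 0.13 for full-length NPM1c against NTC DMSO, and 16 to 21 and -0.22 to -0.15 for C-body null against NTC DMSO. The shares of all genes called in these fits, in the same order, were 16.8% to 24%, 6.61% to 27.8% and 0.244% to 5.7%. They were then 5.57% to 8.73%, 17% to 31.7% and 18.5% to 28.6%. Fewer libraries enter these fits, and the cause of the other shifts was not tested. Members under about 1 CPM (OASL, IFI27, ISG20) and the 4 untested members are limited by depth.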
